A study of Mus musculus with 8 samples.

Results

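AP-1 and BATF family transcription factors were examined in macrophages that lacked *miR-155* or were given IL-10. They are 9 genes: *Fos*, *Fosl2*, *Jun*, *Junb*, *Jund*, *Batf*, *Batf3*, *Atf3* and *Maff*. Members were taken by name, as probe sets that the array annotation gives to one of these genes alone. This left 12 of the 45101 probe sets on the array, which names 18194 genes by a single symbol. *Fosl2*, *Jun* and *Jund* have more than 1 probe set, and the brightest one (highest mean over the 8 arrays) stands for each gene, with the others as a check. Values are log2 intensities after RMA, which corrects background, makes the arrays alike in distribution and gives 1 value per probe set, so that a difference of 1 is a doubling.

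Bone marrow-derived macrophages (BMDM) came from C57Bl/6 mice, 2 WT animals and 2 animals knocked out for *miR-155*. Femur marrow had been frozen and thawed, and was grown for 7 days in medium with 15% L929 conditioned medium, a source of macrophage growth factor. BMDM of each donor received LPS (100 ng/ml) for 24 h, or IL-10 (20 ng/ml) 5 min before the same LPS, which gave WT(LPS), WT(LPS + IL-10), *miR-155*-/-(LPS) and *miR-155*-/-(LPS + IL-10) with 2 arrays each. Every group thus carried LPS, and none of the 8 arrays held unstimulated cells, so induction by LPS itself is not analysed here. The labels give the WT animals as female and the knockout animals as male, whereas the general methods of the study describe female littermates. By the labels, genotype and sex cannot be told apart.

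AP-1 is a dimer of bZIP proteins, in which a leucine zipper joins the partners and a basic region grips DNA. FOS proteins dimerise with JUN proteins, while JUN proteins can also pair with themselves, with ATF proteins or with BATF. BATF proteins carry a bZIP and little else, and with JUN partners and IRF4 or IRF8 they bind joint AP-1 and IRF elements. In macrophages LPS acts through TLR4 and the MAP kinases on *Fos*, *Jun* and *Atf3*, IL-10 acts through STAT3, and *miR-155* is a microRNA induced by inflammatory signals for which *Fos* has been described as a target in dendritic cells.

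The mature miR-155-5p, which the knockout animals lack, is shown because the genotype comparison turns on it. Bases 2 to 8, the seed that pairs with target mRNAs, are in capitals (RefSeq, GRCm38.p6, chr16:84714143-84714165, plus strand).
miR-155-5p: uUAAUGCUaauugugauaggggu

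On the array, *Mir155hg*, the host transcript of the microRNA, read 2.73 and 4.02 on the WT(LPS) arrays for donors 1 and 2, 2.31 and 2.01 on the WT(LPS + IL-10) arrays, 2.14 and 2.19 on the *miR-155*-/-(LPS) arrays and 1.70 and 2.00 on the *miR-155*-/-(LPS + IL-10) arrays. One WT(LPS) array stood above the rest, and the others lay near the lower quartile of all probe sets (2.25 to 2.32). The position of the probe set against the deletion is not stated, so it does not check the genotype.

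The letters upstream of the members' start sites are shown where they hold a cyclic AMP response element (CRE), the palindrome TGACGTCA that ATF and CREB proteins bind, or part of it. Searched on both strands in the 250 bases before each start were the TRE, the AP-1 site proper (TGANTCA), TGACNTCA (CRE-like), TGACGT (a partial CRE, which overlaps TGACNTCA where that reads TGACGTCA), TTCNNNGAA (STAT) and the TATA box (TATAAA). All 9 members had a promoter in the RefSeq table, and *Maff* had 3. *Batf* and *Atf3*, the members with the widest differences between groups, are given whole, with TGACGT or its reverse complement ACGTCA in capitals. They lie on GRCm38.p6 at chr12:85686470-85686719 (plus strand) and chr1:191183334-191183583 (minus strand).
Batf: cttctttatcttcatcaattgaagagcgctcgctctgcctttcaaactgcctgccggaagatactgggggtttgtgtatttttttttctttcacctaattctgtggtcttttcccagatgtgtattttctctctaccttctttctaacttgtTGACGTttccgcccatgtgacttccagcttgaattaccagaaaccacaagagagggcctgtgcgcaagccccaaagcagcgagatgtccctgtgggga
Atf3: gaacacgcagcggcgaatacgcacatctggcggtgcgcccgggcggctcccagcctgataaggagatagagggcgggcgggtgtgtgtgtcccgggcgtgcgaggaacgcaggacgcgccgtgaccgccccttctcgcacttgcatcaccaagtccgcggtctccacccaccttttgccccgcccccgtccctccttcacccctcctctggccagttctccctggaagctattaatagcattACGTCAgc

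Windows around the matches of *Fos* (chr12:85473799-85473854, plus strand), *Jun* (chr4:95052235-95052292, minus strand) and *Maff* promoters 2 and 3 (chr15:79347466-79347519 and chr15:79348332-79348389, plus strand) are given on the same build, with the match in capitals.
Fos: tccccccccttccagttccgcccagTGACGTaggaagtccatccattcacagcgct
Jun: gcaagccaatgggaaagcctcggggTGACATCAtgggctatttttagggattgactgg
Maff, promoter 2: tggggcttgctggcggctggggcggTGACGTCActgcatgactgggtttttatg
Maff, promoter 3: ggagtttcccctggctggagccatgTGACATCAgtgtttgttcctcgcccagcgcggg

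The partial CRE lay 66 bases before the start in *Fos*, 98 in *Batf*, 8 in *Atf3* and 29 in *Maff* promoter 2, and 6.47% of all 32851 promoters hold one. A CRE-like match stood 45 bases before the start in *Jun* and 45 in *Maff* promoter 3, besides the palindrome of *Maff* promoter 2, against 7.49% of promoters. The TRE was in 0 of the member promoters and in 6.75% of all. *Batf3* had a STAT match (7.02% of promoters) and *Fos* a TATA match (12.4%). Binding was not measured here, and a match is a description of the letters only.

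*Batf*, which forms JUN-containing dimers best known from T cells and dendritic cells, rose in *miR-155*-/-(LPS) against WT(LPS) and was the 1 member of 9 that passed the test there. Its level was 6.28 and 5.91 on the WT(LPS) arrays, for donors 1 and 2, and 7.76 and 7.41 on the *miR-155*-/-(LPS) arrays. With IL-10 it was 6.40 and 6.08 in WT and 7.12 and 6.83 in the knockout. Each knockout array stood above each WT array, and in the knockout the LPS arrays stood above the LPS + IL-10 arrays, so that from the top the order was *miR-155*-/-(LPS), *miR-155*-/-(LPS + IL-10), WT(LPS + IL-10) and WT(LPS), with only the WT groups overlapping.

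The difference between *miR-155*-/-(LPS) and WT(LPS) was 1.50 on the log2 scale (SE 0.20, 95% confidence interval 1.03 to 1.96, 2.82-fold, limma, adjusted p = 0.0215). In this comparison 1.46% of the 45014 probe sets tested were called at an adjusted p under 0.05. The call was lost without WT(LPS) donor 1 (adjusted p = 0.106 from limma) or donor 2 (0.0946), without *miR-155*-/-(LPS) donor 1 (0.161) or donor 2 (0.082), or without 1 of the *miR-155*-/-(LPS + IL-10) arrays (0.0513 for each). It held without either WT(LPS + IL-10) array (0.0401 for each), and the log2 difference stayed between 1.34 and 1.65 with any 1 array left out. Fitted to the 4 arrays of these groups alone, the adjusted p was 0.102.

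In *miR-155*-/- BMDM the *Batf* level was lower with IL-10 by 0.61 (SE 0.17), from 7.76 to 7.12 in donor 1 and from 7.41 to 6.83 in donor 2, which did not pass the test (limma, adjusted p = 0.128). In WT BMDM the change with IL-10 was 0.15 (SE 0.17, adjusted p = 0.812). These changes had opposite signs in the knockout and WT donors, and the difference between them was −0.76 (95% confidence interval −1.34 to −0.19, unadjusted p = 0.0163, adjusted p = 0.402 from limma). Between *miR-155*-/-(LPS + IL-10) and WT(LPS + IL-10) a difference of 0.73 remained (SE 0.20, limma, adjusted p = 0.342), with the groups still apart.

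*Batf3*, which dendritic cells need for their cross-presenting subset, was the dimmest member and the only one with a mean under 6. Its level was 4.64 and 4.82 on the WT(LPS) arrays, 4.91 and 5.07 on the WT(LPS + IL-10) arrays, 4.89 and 4.60 on the *miR-155*-/-(LPS) arrays and 4.83 and 4.87 on the *miR-155*-/-(LPS + IL-10) arrays. The genotypes overlapped under LPS, where the log2 difference was 0.02 (95% confidence interval −0.34 to 0.38, limma, adjusted p = 0.976).

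**Figure D1:**
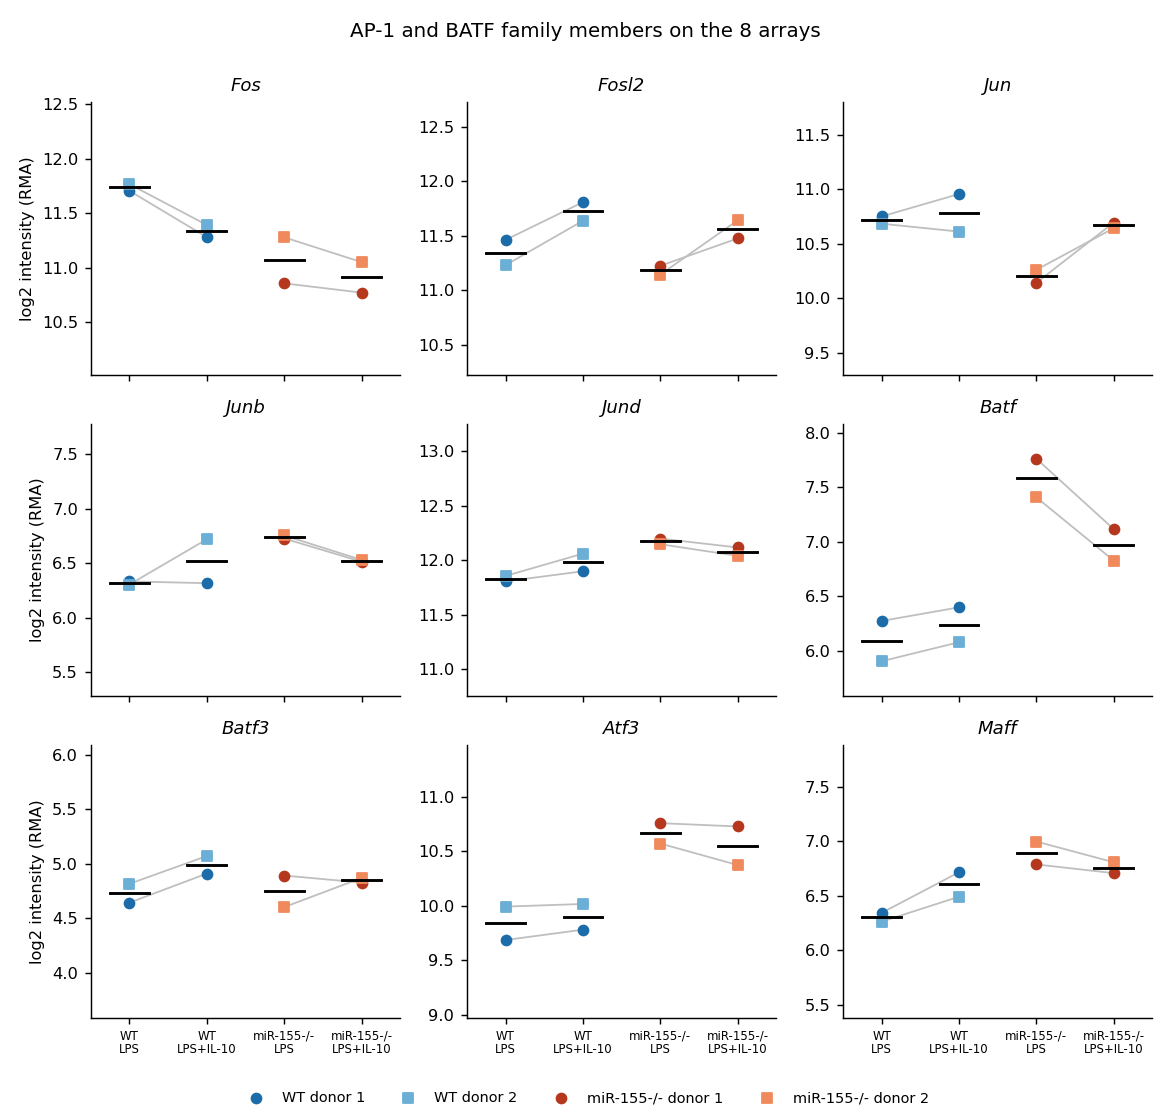
Log2 RMA intensity of the 9 members on the 8 arrays, by group on the x axis; each point is 1 array, grey lines join the arrays of a donor, black bars are group means, and each y axis spans the same number of log2 units. The knockout arrays of *Batf* (6.83 to 7.76) stand above its WT arrays (5.91 to 6.40), with the LPS arrays highest, and those of *Atf3* (10.38 to 10.76) also stand above WT (9.69 to 10.02).

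Of the FOS branch, *Fos*, the immediate early partner of JUN, was lower in the knockout and lower with IL-10, without passing the test. It read 11.71 and 11.77 on the WT(LPS) arrays, 11.28 and 11.39 on the WT(LPS + IL-10) arrays, 10.86 and 11.28 on the *miR-155*-/-(LPS) arrays, and 10.77 and 11.05 on the *miR-155*-/-(LPS + IL-10) arrays. WT(LPS) was the highest group and overlapped no other, whereas the knockout groups overlapped each other. *miR-155*-/-(LPS) lay below WT(LPS) by −0.67 on the log2 scale (SE 0.17, limma, adjusted p = 0.138). With IL-10 the change was −0.40 in WT (SE 0.15, adjusted p = 0.492 from limma) and −0.16 in the knockout (SE 0.15, adjusted p = 0.675), and it had the same sign in each of the 4 donors.

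*Fosl2*, which encodes FRA-2, a longer-lived FOS protein, was the other member whose change with IL-10 had the same sign in all 4 donors, and it went up. Its level was 11.46 and 11.23 on the WT(LPS) arrays and 11.81 and 11.64 on the WT(LPS + IL-10) arrays. In the knockout it was 11.22 and 11.14 with LPS and 11.47 and 11.64 with LPS + IL-10. The groups with and without IL-10 did not overlap in either genotype, while the genotypes overlapped with IL-10.

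The log2 change of *Fosl2* with IL-10 was 0.38 in WT (SE 0.13, limma, adjusted p = 0.46) and 0.37 in the knockout (SE 0.13, adjusted p = 0.193), so the 2 changes differed by −0.00 (95% confidence interval −0.43 to 0.42). Its second probe set, at a mean of 4.94, gave 0.22 in WT and −0.41 in the knockout (adjusted p = 0.685 and 0.243 from limma). The probe sets thus had opposite signs in the knockout, and also between *miR-155*-/-(LPS) and WT(LPS), where they read −0.16 and 0.31. The direction for *Fosl2* rests on the brighter one.

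Among the JUN genes, *Jun*, the partner common to FOS, ATF and BATF dimers, had its lowest levels in *miR-155*-/-(LPS). It read 10.75 and 10.68 on the WT(LPS) arrays, 10.95 and 10.61 on the WT(LPS + IL-10) arrays, 10.14 and 10.26 on the *miR-155*-/-(LPS) arrays and 10.69 and 10.64 on the *miR-155*-/-(LPS + IL-10) arrays. The first 2 groups overlapped with each other and with the last, and *miR-155*-/-(LPS) lay below them all. Against WT(LPS) the log2 difference was −0.52 (SE 0.15, limma, adjusted p = 0.191), and with IL-10 the knockout stood 0.47 higher than without (SE 0.13, adjusted p = 0.131). The second *Jun* probe set had the same signs, at −0.29 and 0.30 (limma, adjusted p = 0.401 and 0.251).

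*Junb*, a JUN protein of weaker activity that often limits JUN, was at 6.33 and 6.30 on the WT(LPS) arrays, 6.32 and 6.72 on the WT(LPS + IL-10) arrays, 6.73 and 6.75 on the *miR-155*-/-(LPS) arrays and 6.51 and 6.53 on the *miR-155*-/-(LPS + IL-10) arrays. *miR-155*-/-(LPS) was again apart from WT(LPS), here above it, by 0.42 (SE 0.16, limma, adjusted p = 0.311). The WT(LPS + IL-10) arrays of the 2 donors lay 1 below and 1 above the knockout arrays with IL-10, and the log2 difference between these groups was 0.00 (SE 0.16).

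*Jund* is a JUN gene that is expressed steadily in most cells. By its brightest probe set it spanned the narrowest range of the JUN genes, 0.34 between group means, whereas its second probe set spanned 0.61. The level of the brightest one was 11.81 and 11.85 on the WT(LPS) arrays and 11.90 and 12.06 on the WT(LPS + IL-10) arrays. In the knockout it was 12.20 and 12.15 on the *miR-155*-/-(LPS) arrays and 12.12 and 12.04 on the *miR-155*-/-(LPS + IL-10) arrays. *miR-155*-/-(LPS) stood above the other groups, by 0.34 over WT(LPS) (SE 0.13, limma, adjusted p = 0.29), and its second probe set gave 0.44 (adjusted p = 0.393). With IL-10 the brighter probe set changed by 0.15 in WT and the second one by −0.17, so the direction of that change is not settled.

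*Atf3*, a stress-induced repressor that LPS induces and that restrains cytokine genes, was higher in the knockout with and without IL-10. It was at 9.69 and 9.99 on the WT(LPS) arrays, 9.78 and 10.02 on the WT(LPS + IL-10) arrays, 10.76 and 10.57 on the *miR-155*-/-(LPS) arrays and 10.73 and 10.38 on the *miR-155*-/-(LPS + IL-10) arrays. All 4 knockout arrays were above all 4 WT arrays, and within a genotype the groups with and without IL-10 overlapped. The log2 difference was 0.83 under LPS (SE 0.18, 95% confidence interval 0.41 to 1.24, 1.77-fold, limma, adjusted p = 0.0862) and 0.65 under LPS + IL-10 (SE 0.18, adjusted p = 0.349). With IL-10 the level moved by 0.06 in WT and −0.11 in the knockout (SE 0.15 for both).

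*Maff*, a small MAF protein that lacks an activation domain and pairs with NRF2 and BACH proteins as well as with FOS, was at 6.34 and 6.26 on the WT(LPS) arrays and 6.71 and 6.49 on the WT(LPS + IL-10) arrays. In the knockout it was at 6.79 and 7.00 with LPS and at 6.71 and 6.81 with LPS + IL-10. WT(LPS) was the lowest group and overlapped no other. *miR-155*-/-(LPS) stood higher by 0.59 (SE 0.14, limma, adjusted p = 0.119), and the change with IL-10 was 0.30 in WT (SE 0.12, adjusted p = 0.529) and −0.14 in the knockout (SE 0.12, adjusted p = 0.661).

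**Figure D2:**
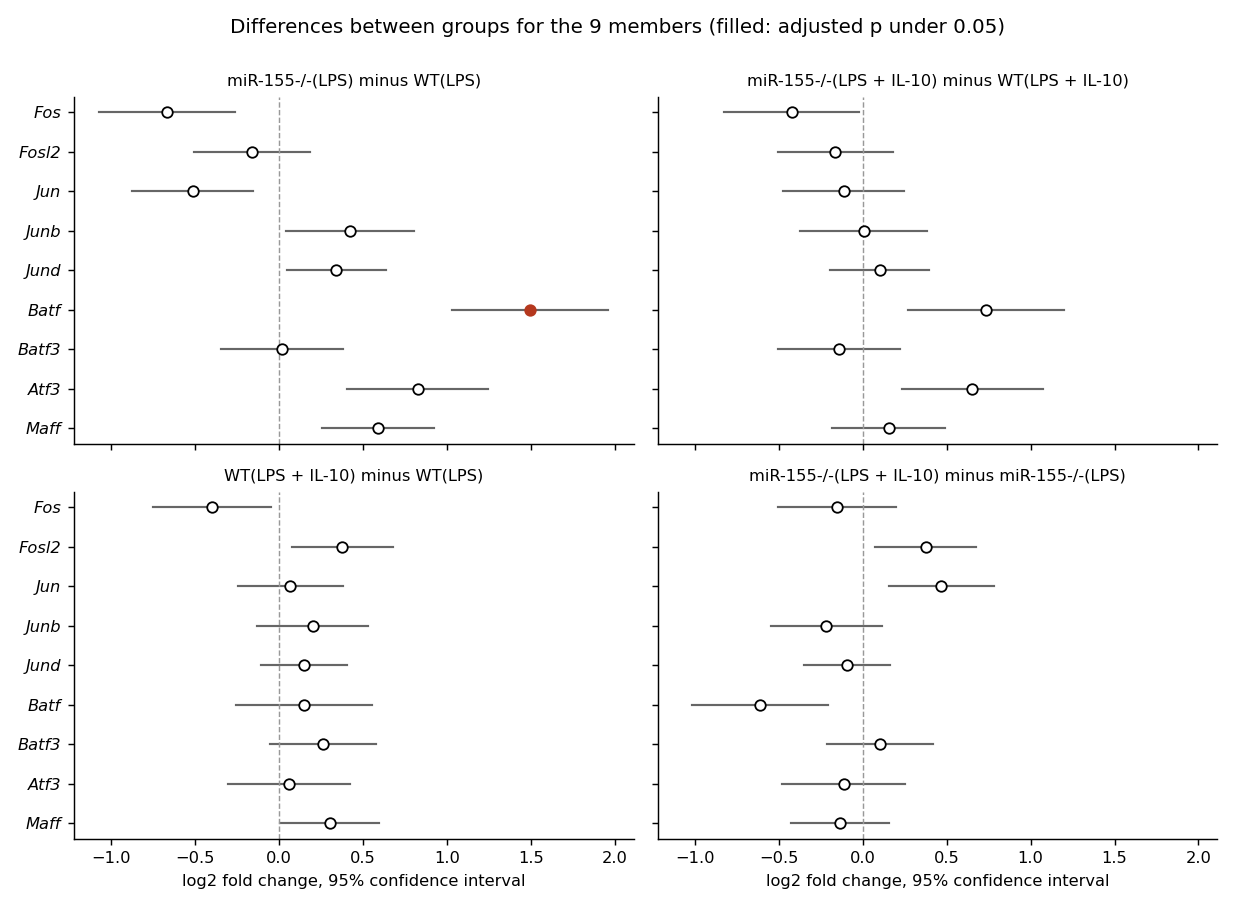
Log2 fold change of each member in the 4 comparisons of groups, with 95% confidence intervals from limma (x axis, log2 units; y axis, genes); filled points passed an adjusted p under 0.05. *Batf* in *miR-155*-/-(LPS) against WT(LPS), at 1.50, is the filled point.

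Counted over the family, whose members were chosen with earlier results of these data known, *miR-155*-/-(LPS) against WT(LPS) was the comparison with the most differences. There, 8 of the 9 members had groups that did not overlap, against 46.5% of all probe sets and 61.6% of those with a mean of at least 6. The knockout was higher for 5 members (25.3% of all probe sets) and lower for 3 (21.3%). *Fos*, *Fosl2* and *Jun* were the 3 below WT, and *Batf3* the 1 that overlapped. At an unadjusted p under 0.05 stood 7 members, against 13.8% of all probe sets. That share was not counted among probe sets with a mean of at least 6, a level that 8 of the 9 members reach. The median log2 difference of the members was 0.34, against 0.02 over all probe sets. *Batf* alone also had a log2 fold change over 1 in size at that p, against 2.52% of all. In the other comparisons no member met both limits, which 0.689% of probe sets met for IL-10 in WT, 2.51% for IL-10 in the knockout, 1.22% for genotype under LPS + IL-10 and 1.76% for the difference of IL-10 changes.

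Under LPS + IL-10 the same genotype contrast had no member past the adjusted threshold in limma, where 0.0711% of probe sets passed. At an unadjusted p under 0.05 it had 3 (*Fos*, *Batf* and *Atf3*, against 8.94% of all). Groups did not overlap for 4 members, *Fos*, *Batf*, *Batf3* and *Atf3*, against 38.9% of probe sets (46.6% of those with a mean of at least 6). The members' median was 0.00, against 0.03 over all.

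IL-10 in WT BMDM likewise left 0 members past the adjusted threshold, against 0.0311% of probe sets, and 3 at an unadjusted p under 0.05 (*Fos*, *Fosl2* and *Maff*, against 9.27%). Groups were apart for 5 members, *Fos*, *Fosl2*, *Jund*, *Batf3* and *Maff*, against 32.8% (37.6% of the brighter ones). Of the 9, 8 had a positive difference and *Fos* a negative one, with a median of 0.15. In the knockout 0 members passed, against 2.68% of probe sets, and 3 had an unadjusted p under 0.05 (*Fosl2*, *Jun* and *Batf*, against 17.3%). There the groups of 5 members were apart (*Fosl2*, *Jun*, *Junb*, *Jund* and *Batf*, against 47.9%, or 65.1% of the brighter ones), and the median was −0.11. WT(LPS) enters 2 of these comparisons and *miR-155*-/-(LPS) likewise 2, so their values are not independent of each other.

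**Figure D3:**
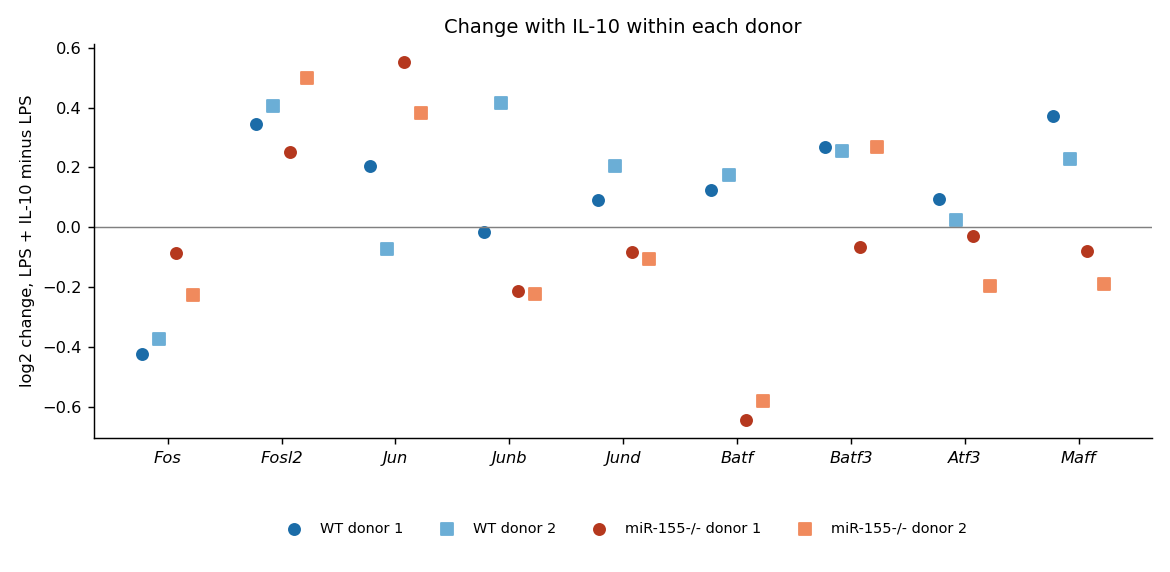
Change with IL-10 within each donor (y axis, log2 units, LPS + IL-10 minus LPS) for the 9 members; each point is 1 donor. By the brightest probe set of each gene, *Jund*, *Batf*, *Atf3* and *Maff* lie above 0 in both WT donors and below 0 in both knockout donors, and *Fos* and *Fosl2* have the same sign in all 4 donors.

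Within donors, the change with IL-10 ran up in both WT donors and down in both knockout donors for 4 of the 9 members, *Jund*, *Batf*, *Atf3* and *Maff*, by their brightest probe sets. The second *Jund* probe set went down in all 4 donors, by −0.26 and −0.08 in WT and −0.49 and −0.33 in the knockout. Of all probe sets 14.1% had opposite signs between the genotypes in this way, in either direction (16.8% of the brighter ones). For *Batf* the changes were 0.13 and 0.17 in the WT donors and −0.65 and −0.58 in the knockout donors. For *Maff* they were 0.37 and 0.23 against −0.08 and −0.19, while *Jund* and *Atf3* moved by at most 0.20 in size in any donor. The difference of the IL-10 changes passed the test for 0 of the 9 members in limma, against 0.0333% of probe sets, and had an unadjusted p under 0.05 for *Batf* and *Maff* (10.4% of all). By their brightest probe sets, 2 of the 9 members had 1 sign in all 4 donors, against 21.8% (32.6% of the brighter ones). The second *Fosl2* probe set went up in both WT donors and down in both knockout donors. The second *Jun* probe set went up in all 4 donors, so this count depends on the probe set.

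Other bZIP genes, 27 of 30 measured, gave 0 calls between *miR-155*-/-(LPS) and WT(LPS) in limma, with an unadjusted p under 0.05 for 9 that were higher and 3 that were lower (1.46% and 13.8% of all probe sets had these in either direction). The list held FOS, ATF, CREB, MAF, NRF2, BACH and C/EBP relatives of the members, and its median was 0.15. Its lowest p values belonged to *Crem*, a cyclic AMP responsive factor, at −0.82 (adjusted p = 0.0578), and to *Batf2*, an interferon-induced relative of *Batf*, at 1.64 (adjusted p = 0.0795). *Batf2* read 5.43 and 6.43 on the WT(LPS) arrays and 7.78 and 7.35 on the *miR-155*-/-(LPS) arrays, and with IL-10 it read 5.43 and 6.16 in WT and 6.40 and 6.16 in the knockout. Its *miR-155*-/-(LPS) arrays were thus the highest of the 8, as were those of *Batf*.

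With IL-10, 3 of these 27 bZIP genes changed in the knockout, where 2.68% of all probe sets did. *Nfil3*, a repressor known as an IL-10 and STAT3 responsive gene, rose by 1.21 (SE 0.14, limma, adjusted p = 0.00996), from 7.39 and 7.60 to 8.54 and 8.89. It went from 8.04 and 7.83 to 9.05 and 9.09 in WT, by 1.13, which did not pass (adjusted p = 0.077). *Crem* rose by 0.76 (adjusted p = 0.0368), with its other 3 probe sets between −0.51 and 0.29. In WT its brightest probe set also rose, by 0.65, which did not pass (limma, adjusted p = 0.208).

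*Fosl1*, which encodes the FOS protein FRA-1, fell with IL-10 in the knockout by 1.41 on the log2 scale (limma, adjusted p = 0.0192), from 5.52 and 5.98 to 4.15 and 4.53. Its second probe set differed by −0.16 (adjusted p = 0.803). In WT the brightest and the second probe set changed by −0.69 and −0.71 with IL-10 (limma, adjusted p = 0.39 and 0.439). *Crem* was lost without any 1 of the 8 arrays (adjusted p 0.0513 to 0.231 from limma), and *Fosl1* without any 1 of the 4 knockout arrays (0.0901 to 0.137). *Nfil3* was lost without *miR-155*-/-(LPS) donor 1 (0.105) or donor 2 (0.0632), or without *miR-155*-/-(LPS + IL-10) donor 2 (0.0802). In WT with IL-10, in *miR-155*-/-(LPS + IL-10) against WT(LPS + IL-10) and in the difference of the IL-10 changes, 0 genes of the list passed. Of all probe sets 0.0311%, 0.0711% and 0.0333% passed there. At an unadjusted p under 0.05 stood 4, 3 and 6 of the 27 genes, against 9.27%, 8.94% and 10.4% of all probe sets.

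*Irf4* and *Irf8*, the IRF partners of BATF, passed the test in 0 of the 5 comparisons by limma. *Irf8* read 9.79 and 9.78 on the WT(LPS) arrays and 9.35 and 9.42 on the *miR-155*-/-(LPS) arrays, a difference of −0.40 (adjusted p = 0.197), and in the knockout it was 0.41 higher with IL-10 (adjusted p = 0.101). *Irf4* lay between 2.23 and 3.12 on the 8 arrays, near the lower quartile of probe sets.

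On the MAP kinase path to AP-1, 17 of 20 genes were measured, and *Map2k6* stood out. It encodes MKK6, a kinase that activates p38. Its level was 6.59 and 6.69 on the WT(LPS) arrays, 6.78 and 6.95 on the WT(LPS + IL-10) arrays, 8.64 and 8.42 on the *miR-155*-/-(LPS) arrays and 6.95 and 6.84 on the *miR-155*-/-(LPS + IL-10) arrays. *miR-155*-/-(LPS) was above every other array, and the remaining arrays lay between 6.59 and 6.95.

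**Figure D4:**
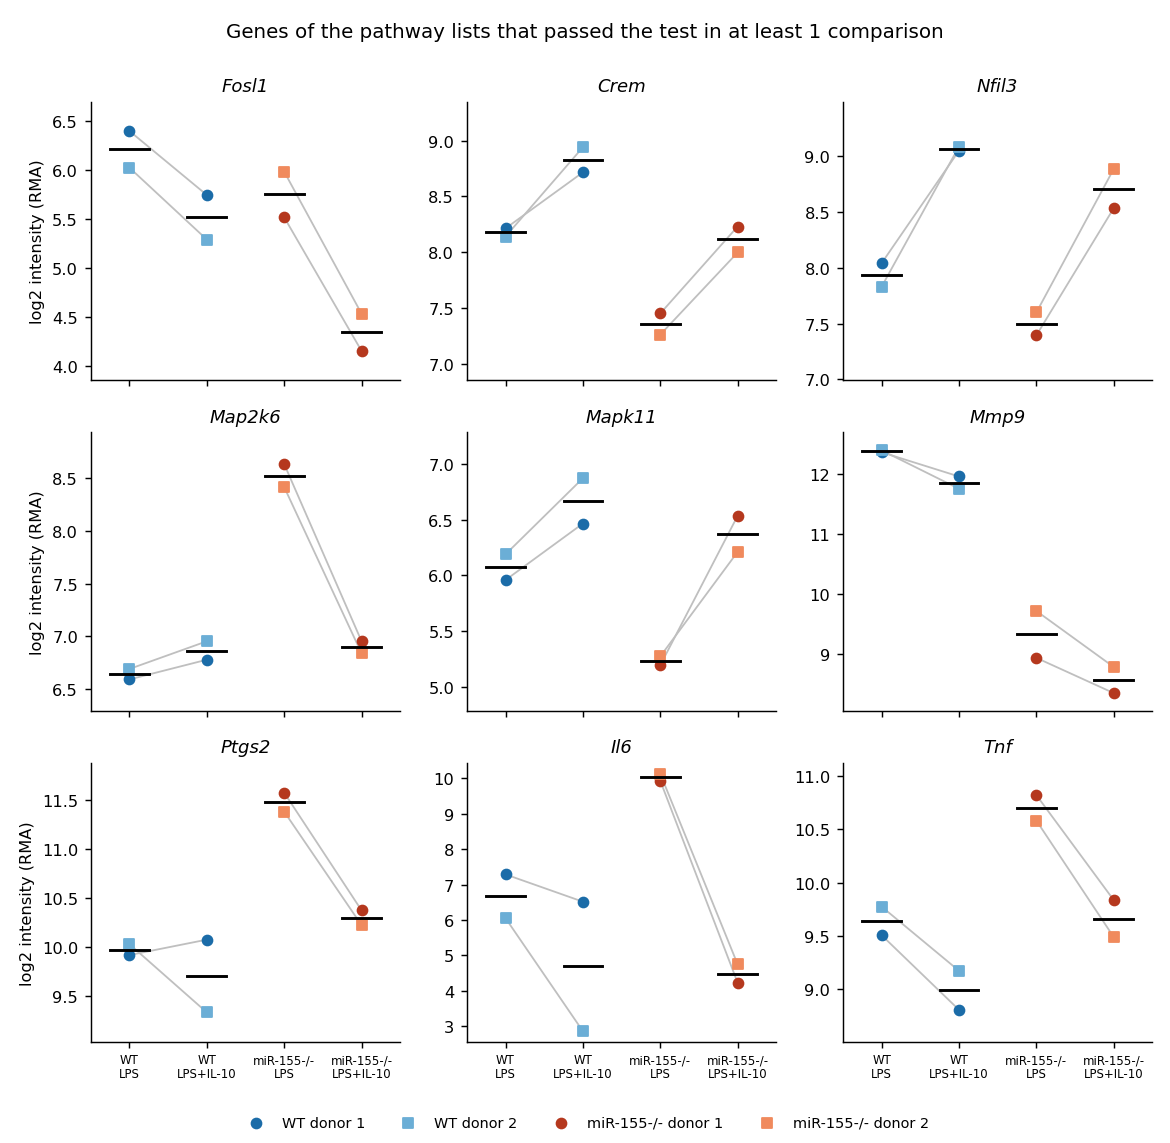
Log2 RMA intensity on the 8 arrays (y axis; groups on the x axis; points are arrays, grey lines join a donor's arrays, black bars are group means) of the 9 genes from the bZIP, MAP kinase and target lists whose brightest probe set passed an adjusted p under 0.05 in at least 1 comparison; the y axes differ in span. *Map2k6* is high on the *miR-155*-/-(LPS) arrays, at 8.64 and 8.42, and at most 6.95 on the others.

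*Map2k6* in *miR-155*-/-(LPS) exceeded WT(LPS) by 1.88 (SE 0.14, limma, adjusted p = 0.00345) and fell with IL-10 in the knockout by 1.63 on the log2 scale (adjusted p = 0.00263). Both calls held with any 1 array left out (adjusted p up to 0.0439 and 0.0377 from limma). Its difference of IL-10 changes was −1.85 (SE 0.17, adjusted p = 0.044), a call that was lost without any 1 of the 8 arrays (adjusted p 0.135 to 0.295). *Mapk11*, which encodes p38 beta, rose with IL-10 in the knockout by 1.14 (limma, adjusted p = 0.0193, and 0.0682 to 0.167 without any 1 of the 4 knockout arrays), with 0.50 in its second probe set. In WT *Mapk11* rose by 0.60 (limma, adjusted p = 0.356), and the difference of its IL-10 changes did not pass (adjusted p = 0.481). The other 16 genes did not pass in *miR-155*-/-(LPS) against WT(LPS), where 1.46% of all probe sets passed. Nor did the other 15 with IL-10 in the knockout (2.68% of all), and the list medians were 0.07 and −0.03. In WT with IL-10 and between the genotypes under LPS + IL-10, 0 of the 17 passed in limma, against 0.0311% and 0.0711% of all probe sets. At an unadjusted p under 0.05 stood 3 and 2 of them, against 9.27% and 8.94% of all probe sets.

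Textbook AP-1 target genes, 17 of 18 measured, went both ways. In *miR-155*-/-(LPS) against WT(LPS), *Ptgs2* (the prostaglandin synthase COX-2) rose and *Mmp9* (a secreted gelatinase) fell. The other 15 did not pass the test, which 1.46% of all probe sets passed, and the list median was 0.03. At an unadjusted p under 0.05 (limma) 4 were higher and 4 lower, against 13.8% of all probe sets. For IL-10 in the knockout these counts were 1 and 7 (17.3% of all). For genotype under LPS + IL-10 they were 3 and 4 (8.94% of all), and *Mmp9* alone passed the adjusted threshold there (0.0711% of all). *Mmp9* read 12.37 and 12.40 on the WT(LPS) arrays and 8.93 and 9.71 on the *miR-155*-/-(LPS) arrays, with 11.96 and 11.76 on the WT(LPS + IL-10) arrays and 8.34 and 8.78 on the *miR-155*-/-(LPS + IL-10) arrays. All knockout arrays were below all WT arrays, by −3.06 under LPS (SE 0.25, limma, adjusted p = 0.00538) and −3.30 under LPS + IL-10 (SE 0.25, adjusted p = 0.0132).

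The second *Mmp9* probe set gave −3.79 and −3.76 (limma, adjusted p = 0.00178 and 0.00878). The call under LPS was lost without WT(LPS) donor 1 (adjusted p = 0.0507), and that under LPS + IL-10 without any 1 of the WT arrays or of the *miR-155*-/-(LPS + IL-10) arrays (0.0575 to 0.14). *Ptgs2* was higher by 1.50 in *miR-155*-/-(LPS) (adjusted p = 0.0421 from limma), and by 3.38 in its second probe set (adjusted p = 0.00144).

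With IL-10 in the knockout 3 targets passed the test, all of them lower, where 2.68% of all probe sets passed. *Il6* fell by 5.54 on the log2 scale (SE 0.87, limma, adjusted p = 0.0257). *Tnf* fell by 1.04 (SE 0.16, adjusted p = 0.0267 from limma) and *Ptgs2* by 1.18 (SE 0.22, adjusted p = 0.0423). The second *Ptgs2* probe set fell by 3.10 (limma, adjusted p = 0.00157). *Il6* went from 9.93 and 10.13 to 4.23 and 4.75 in the knockout donors, and from 7.29 and 6.05 to 6.52 and 2.86 in the WT donors. The WT donors differed widely from each other. By the brightest probe sets, the *Ptgs2* call against WT(LPS) and the calls of *Il6*, *Tnf* and *Ptgs2* with IL-10 were each lost without any 1 of the WT(LPS) or knockout arrays, at adjusted p 0.096 to 0.262, 0.056 to 0.175, 0.0529 to 0.198 and 0.0732 to 0.261. In WT BMDM with IL-10, 0 targets passed, against 0.0311% of all probe sets. *Tnf* was the 1 at an unadjusted p under 0.05 (−0.65, adjusted p = 0.313 from limma), against 9.27% of all probe sets. By the brightest probe sets 0 passed in the difference of the IL-10 changes (0.0333% of all probe sets), with 3 at that p, against 10.4%. The second *Ptgs2* probe set did pass there, at −2.76 (adjusted p = 0.0326 from limma), against −0.91 in the brighter one (adjusted p = 0.418).

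The genes whose values ran most like those of *Batf* and *Atf3*, the members with the widest range of group means, were sought among 8484 genes, as the smallest root mean square difference of values centred over the 8 arrays. Nearest to *Batf* was *Gadd45a*, a growth arrest and DNA damage gene, at a distance of 0.13 log2 units. It read 8.59 and 8.35 on the WT(LPS) arrays, 8.99 and 8.53 on the WT(LPS + IL-10) arrays, 10.34 and 9.80 on the *miR-155*-/-(LPS) arrays and 9.80 and 9.09 on the *miR-155*-/-(LPS + IL-10) arrays. It was followed by *Trim36*, *Tmeff1*, *Nlrx1* and *Tpst1*, at 0.20 to 0.22. Nearest to *Atf3* were *Flot1*, at 0.12, and *Vti1a*, *Apobec3*, *Cntrl* and *Cdc14a*, each at 0.14.

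Macrophage markers, 8 of 8 measured, lay between 8.03 and 13.5 on every array. Markers of T and NK, B and dendritic cells, where *Batf* and *Batf3* are best known, were at most 4.71, 4.15 and 4.35. Fibroblast and stromal markers, 12 of 13 measured, summed to 13.7 and 13.8 (log2) on the arrays of WT donor 1 against 7.13 to 9.40 on the other arrays, with 11 of the 12 highest in that donor. The remaining one, *Lum*, a collagen-binding proteoglycan, was higher in *miR-155*-/-(LPS) by 2.57 (limma, adjusted p = 0.0125). The part of these cells in the members' differences was not tested, but without both arrays of WT donor 1 the *Batf* difference under LPS was 1.68 (limma, adjusted p = 0.0523). Neutrophil markers, 6 of 8 measured, summed to 12.2 and 12.1 on the WT(LPS) arrays against 10.9 and 11.1 on the *miR-155*-/-(LPS) arrays, and to 12.4 to 13.0 under LPS + IL-10. *S100a8* and *S100a9*, calprotectin genes that myeloid cells share, were the 2 of the 6 that passed under LPS, and in the knockout they fell by 1.17 and 3.12 on the log2 scale (limma, adjusted p = 0.0141 and 0.0153). Under LPS + IL-10 *S100a9* fell by 4.44 in the knockout against WT (adjusted p = 0.0187 from limma), and *S100a8* rose with IL-10 in the knockout by 1.59 (adjusted p = 0.00261). The neutrophil granule genes *Mpo*, *Elane* and *Ngp* were at most 3.05 on every array. The part of neutrophils in the members' differences was not tested. In bulk RNA, fewer cells of a type and less RNA per cell cannot be told apart.

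**Figure D5:**
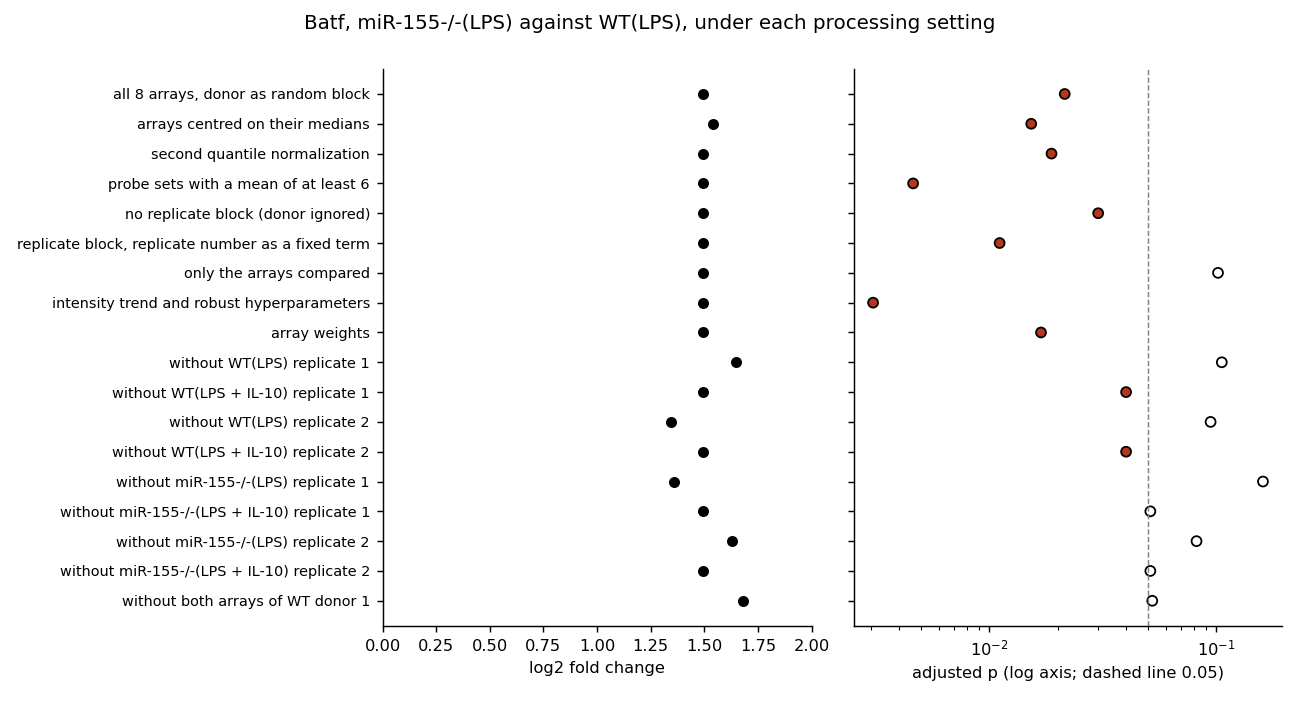
*Batf* in *miR-155*-/-(LPS) against WT(LPS) under each processing setting (y axis); left, log2 fold change; right, adjusted p from limma on a log axis, filled where under 0.05, with the dashed line at 0.05. The log2 fold change lies between 1.34 and 1.68, and the adjusted p between 0.00307 and 0.161.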

How the data were processed

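The authors hybridised amplified, biotin-labelled RNA of the 8 BMDM samples to Affymetrix mouse arrays and deposited log2 intensities made with RMA in affy, without a filter. The versions of affy and RMA are not given, and 0 array columns belonged to no sample. Donors were read from genotype and replicate number. Within a genotype, arrays of the same number shared deviations from their group means (r = 0.754 in WT, 0.230 in knockout). Such sharing cannot tell a donor from a batch of the same number. Of 45101 probe sets, 64 were controls and 23 stood for *Xist* or genes of the Y chromosome, and none of these was tested. For the 45014 others limma 3.58.1 (lmFit, eBayes, in R 4.3.3) was used, with group means as coefficients and donor as a random block (duplicateCorrelation, statmod 1.5.0, consensus correlation 0.240), with Benjamini-Hochberg adjustment over all of them. The number of arrays limits the precision, and the fit was tested on simulated data.

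All members were named. Of each pathway list, genes whose brightest probe set passed an adjusted p under 0.05 were named, and otherwise those of lowest p, *Batf2* among them, and for *Batf* and *Atf3* the 5 nearest genes with a mean of at least 6. Marker genes past that p were named after their values were seen. The members and the lists (4 of the pathway, 6 of markers) were chosen with earlier results of these data known. Gene symbols came from the array annotation. Promoters and the microRNA came from RefSeq (GRCm38.p6), read with Python 3.11.15, and plots were drawn with matplotlib 3.10.9. Alternatives were other blocks, filters, normalizations, variance models, weights, probe sets, thresholds and arrays left out. Protein sequences and miR-155 target sites were not analysed here.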

Additional observations from a re-analysis of the deposited data

Results flagged for a closer look

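The change with IL-10 went up in both WT donors and down in both knockout donors for *Jund*, *Batf*, *Atf3* and *Maff*, and the difference between the genotypes (knockout minus WT) was −0.24, −0.76, −0.17 and −0.44 on the log2 scale. None of these 4 differences passed the test itself (limma, adjusted p = 0.617, 0.402, 0.816 and 0.466), and 14.1% of all probe sets had such opposite signs. The second *Jund* probe set went down in both WT donors too, by −0.26 and −0.08, and so does not show the opposite signs. *Map2k6*, the gene of the p38-activating kinase MKK6, had a difference of −1.85 that passed the test of the difference (limma, adjusted p = 0.044). That call was lost without any 1 of the 8 arrays. *Map2k6* rose from 6.59 to 6.78 and from 6.69 to 6.95 in the WT donors. In the knockout donors it fell from 8.64 to 6.95 and from 8.42 to 6.84.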

How the results depend on the processing

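With 2 arrays a group, 1 array decides most calls. The count of members called in *miR-155*-/-(LPS) against WT(LPS), 1 as reported, was 4 over probe sets with a mean of at least 6 (*Fos*, *Batf*, *Atf3* and *Maff*), 3 with an intensity trend and robust hyperparameters, 2 at an adjusted p under 0.1, 0 with only the arrays compared, 0 without both arrays of WT donor 1, and 0 to 1 with 1 array left out. Over all probe sets, calls in that comparison were 1523 of 15434 among the brighter ones, 1570 of 45014 with the trend and 1397 of 45014 at 0.1. With IL-10 in the knockout, the count of members called, 0 as reported, was 3 over the brighter probe sets (*Fosl2*, *Jun* and *Batf*) and 1 with the trend. There 3183 of 15434 and 2422 of 45014 probe sets were called. In the other comparisons it stayed at 0, and the member selected by unadjusted p and size stayed 1 in the first comparison and 0 in the others under every alternative run. Over all probe sets, calls in the first comparison went from 659 to between 53 and 1570, and in IL-10 in the knockout from 1206 to between 112 and 3183. They went from 14 to between 0 and 327 for IL-10 in WT, from 32 to between 2 and 295 for genotype under LPS + IL-10, and from 15 to between 1 and 105 for the difference of IL-10 changes. With only the arrays compared, calls in the first comparison fell to 77, while those for IL-10 in the knockout rose to 1651. Why the totals moved was not tested.

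Leaving out the donor block changed no member's call, with *Batf* at adjusted p = 0.0302 from limma. Donor as a fixed term cannot estimate a difference between genotypes, as no donor has both. The fit with replicate number as a fixed term (limma, adjusted p = 0.0111 for *Batf*) matches WT and knockout animals by number. It therefore does not test donor pairing. With no block, *Fosl1*, *Crem*, *Mapk11*, *Il6*, *Tnf* and *Ptgs2* with IL-10 in the knockout lost their calls (adjusted p 0.0513 to 0.0906), as did the *Map2k6* difference (0.11, and 0.0519 with donor as a fixed term and 0.0505 with array weights). With only the arrays compared, *Mmp9* lost both calls (0.0596 and 0.142) and *Ptgs2* 1 (0.0599). Without both arrays of WT donor 1, *Mmp9* under LPS + IL-10 (0.0667) and the *Map2k6* difference (0.167) were lost, and with the trend *Il6* (0.0826). For the arrays compared within a genotype and without WT donor 1, the correlation of all 8 arrays was used.

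Among the alternatives run, signs changed only for values that had not passed. Other probe sets of the listed pathway genes were not among these alternatives. A *Crem* probe set read −0.51 with IL-10 in the knockout, where the brightest one had passed at 0.76. With the other probe set, *Jund* was at −0.17 with IL-10 in WT, and *Fosl2* at 0.31 between the genotypes under LPS and −0.41 with IL-10 in the knockout. Without WT donor 1, *Jun* was at −0.072 with IL-10 in WT and 0.058 between genotypes under LPS + IL-10, *Junb* at −0.20 there, and *Batf3* at −0.069 between genotypes under LPS. With 1 array left out, values crossed 0 for IL-10 in WT in *Jun* (−0.10 to 0.23), *Junb* (−0.0044 to 0.40), *Batf* (−0.0013 to 0.30) and *Atf3* (−0.069 to 0.19). They did so for IL-10 in the knockout in *Fos* (−0.33 to 0.015), *Batf3* (−0.050 to 0.25) and *Atf3* (−0.26 to 0.036), and between genotypes in *Batf3* under LPS (−0.13 to 0.17) and *Jun* (−0.28 to 0.051) and *Junb* (−0.20 to 0.21) under LPS + IL-10. The *Fosl2* difference of IL-10 changes did likewise (−0.10 to 0.10). Of 1048 values of single genes under an alternative, 933 kept direction and side of the threshold. The others were 81 that lost a call, 24 that changed sign and 10 that gained a call. Most of the 1048 had not passed to begin with, and a call at 0.05 holds at 0.1 by definition. The 933 thus say little about how firm the calls are.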
